A study of Homo sapiens with 14 samples.

Results

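Cell cycle genes were examined as a set of 47 human genes, listed by name as cyclins, cyclin-dependent kinases (CDKs), CDK inhibitors, pocket proteins, E2F and DP factors, replication licensing factors, CDK phosphatases with WEE1, and mitotic kinases with their partners. RefSeq (GRCh38.p14) lists 19974 protein-coding genes on chromosomes 1 to 22 and X, and all 47 were among them. A gene counted as called in a library when at least 1 bp of a peak lay within 2 kb of either annotated gene end, and the length covered by peaks was measured inside those windows. The data were 14 peak lists from CUT&Tag, in which an antibody guides the Tn5 transposase to cut DNA beside a protein or histone mark. The cells were Jurkat, a human leukaemia line of T cell origin. CTCF was mapped in cells with a lentiviral shRNA against SATB1 (shSATB1, 3 libraries) and with a control shRNA (shCtrl, 3 libraries), and H3K27ac likewise (shSATB1, 2 libraries; shCtrl, 2 libraries). SATB1 was mapped only in shCtrl cells (2 libraries), and the 2 Matrin 3 libraries carry no shRNA on their label. Per the labels every group is Jurkat, the extent of the SATB1 knockdown was not measured in these files, and no label says whether replicates were separate cultures, so their spread may be technical.

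Cyclins switch on CDKs in turn through the cycle, and CDK inhibitors hold them off. D-type cyclins with CDK4 and E-type cyclins with CDK2 phosphorylate the pocket proteins, which releases E2F factors to switch on genes for DNA replication. CCAAT and CHR elements mark promoters that are kept silent by the pocket protein complex DREAM until late in the cycle. CTCF binds insulators and loop anchors as well as promoters, H3K27ac marks active promoters and enhancers, SATB1 is a chromatin organiser abundant in T cells, and Matrin 3 is a nuclear matrix protein.

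The CTCF lists held 14695 to 20284 peaks in shSATB1 and 31141 to 32540 in shCtrl, and covered 24.5 to 40.8 Mb in shSATB1 and 90.1 to 102 Mb in shCtrl. H3K27ac lists held 17925 and 15972 peaks over 46.5 and 41.0 Mb in shSATB1 and 17863 and 17141 peaks over 53.8 and 52.0 Mb in shCtrl. The read depth of the libraries is unknown and their signal was not scaled, so signal was compared only within 1 list, mostly as the percentile of a peak's maximum signal, and a gene's percentile is that of the highest-ranked peak at its ends. A shallower library and less CTCF on the DNA cannot be told apart in these lists. The 2 SATB1 lists shared 6001 identical peak starts, 40.8% of the shorter list, against at most 1.03% for any other pair of lists, so they are not independent, and a call in both lists stands for 1 observation. The second Matrin 3 list held 2105 peaks, against 24566 in the first. The line's identity was checked on H3K27ac at markers: 10 of 11 T cell genes were called in every library of both arms, while CD5 was called in 0 of 2 shSATB1 and 1 of 2 shCtrl libraries. None of 7 myeloid and none of 5 epithelial genes had a peak, and 2 of 7 B cell genes (CD79A and BLK) were called in both arms.

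CTCF sat at nearly all cell cycle genes of control cells and at far fewer after SATB1 knockdown. It was called in every shSATB1 library at 23 of 47 members, where the share over all genes was 37.9%, and in every shCtrl library at 44 of 47, where it was 58%. Single libraries called 25, 29 and 33 members in shSATB1 and 44 in each of the 3 shCtrl libraries. Of the 44 members called throughout shCtrl, 10 (22.7%) had no call in any shSATB1 library, which is termed lost, against 14.8% of all genes with CTCF there. Another 23 (52.3%) were called throughout both arms, against 65.4% of all such genes, and 11 were called in some shSATB1 libraries. No member gained CTCF, nor did any other gene (0%).

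H3K27ac at the same genes was called almost alike in both arms. It was called in every shSATB1 library at 34 of 47 members (36.9% of all genes) and in every shCtrl library at 36 of 47 (38.8% of all genes). It was lost at 1 of those 36 members, E2F4, where the share of all genes was 2.18%. None gained it, where the share of all genes was 0.501%, and 34 of 36 (94.4%) kept it against 90.4% of all genes. Without shSATB1 replicate 1 the lost count was 2, with PLK1 added. Single libraries called 36 and 34 members in shSATB1 and 36 and 37 in shCtrl.

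**Figure D1:**
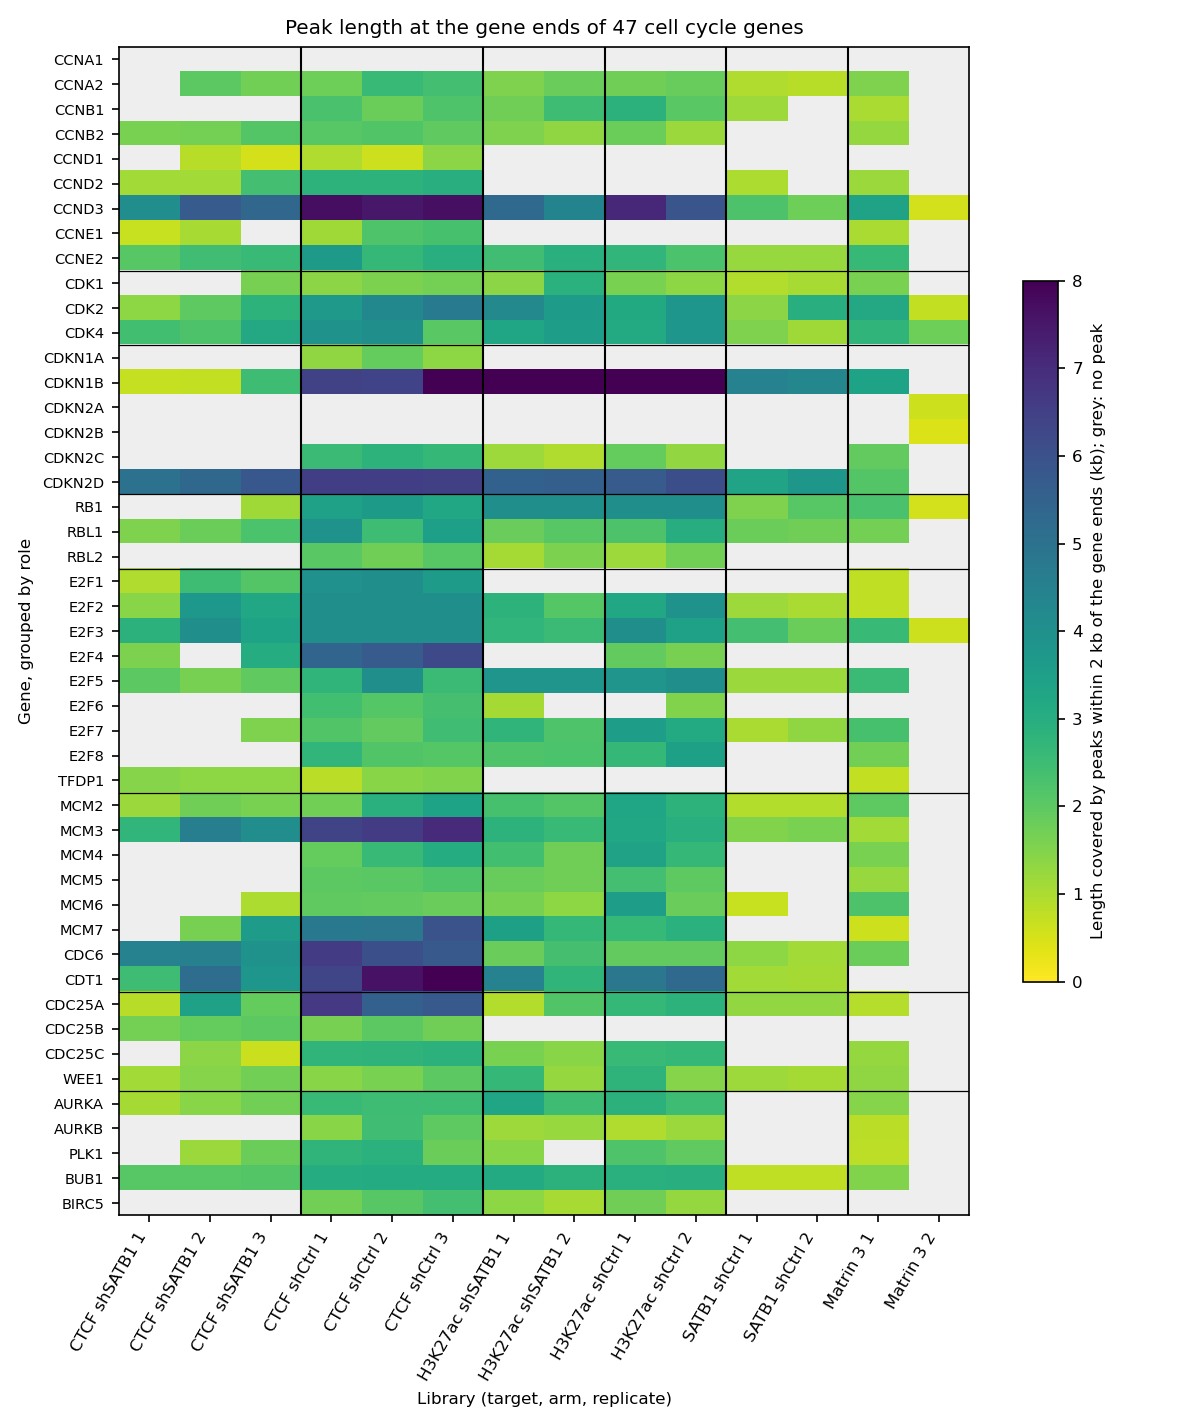
Length covered by peaks (kb, colour; grey for no peak) within 2 kb of the ends of each of the 47 genes (rows, grouped by role and separated by lines) in each of the 14 libraries (columns, grouped by target and arm). CTCF columns of shSATB1 are paler than those of shCtrl in most rows and grey in all 3 libraries at 10 genes that are coloured in all 3 shCtrl libraries. H3K27ac was called at nearly the same genes in both arms, with shorter covered length in shSATB1 at 18 of them, and CCNA1 is grey throughout.

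Peak length at the gene ends was also lower after knockdown, for CTCF at most members and for H3K27ac at 18. The CTCF length was lower in all 3 shSATB1 libraries than in any shCtrl library at 33 of the 44 members with CTCF (75%), against 79.9% of all genes with CTCF, and higher without overlap at 0, against 0.0173%. The median difference over these members was -1608 bp, shSATB1 minus shCtrl, and -1392 bp over all genes. The difference lay below 0 at 42 of the 44 members (95.5%), against 99.5% of all genes with CTCF. The H3K27ac length was lower without overlap at 18 of 36 members (50%), against 34.6% of all genes with H3K27ac, and higher without overlap at 0, against 7.73%. The H3K27ac lists of shSATB1 also covered less of the genome than those of shCtrl, and the part of this in the shorter lengths was not tested. Without 1 library the higher count was 4 (shSATB1 replicate 1), 4 (shSATB1 replicate 2), 3 (shCtrl replicate 1) or 5 (shCtrl replicate 2). The H3K27ac difference had a median of -343 bp over members and -237 bp over all genes. It lay below 0 at 26 of 36 members (72.2%), against 71.3% of all genes with H3K27ac. With 3 against 3 libraries a two-sided exact permutation test cannot give a p below 0.1, and with 2 against 2 not below 0.33, so no difference in length of a single gene can pass 0.05. The plot of members by role gives the same counts by library.

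**Figure D2:**
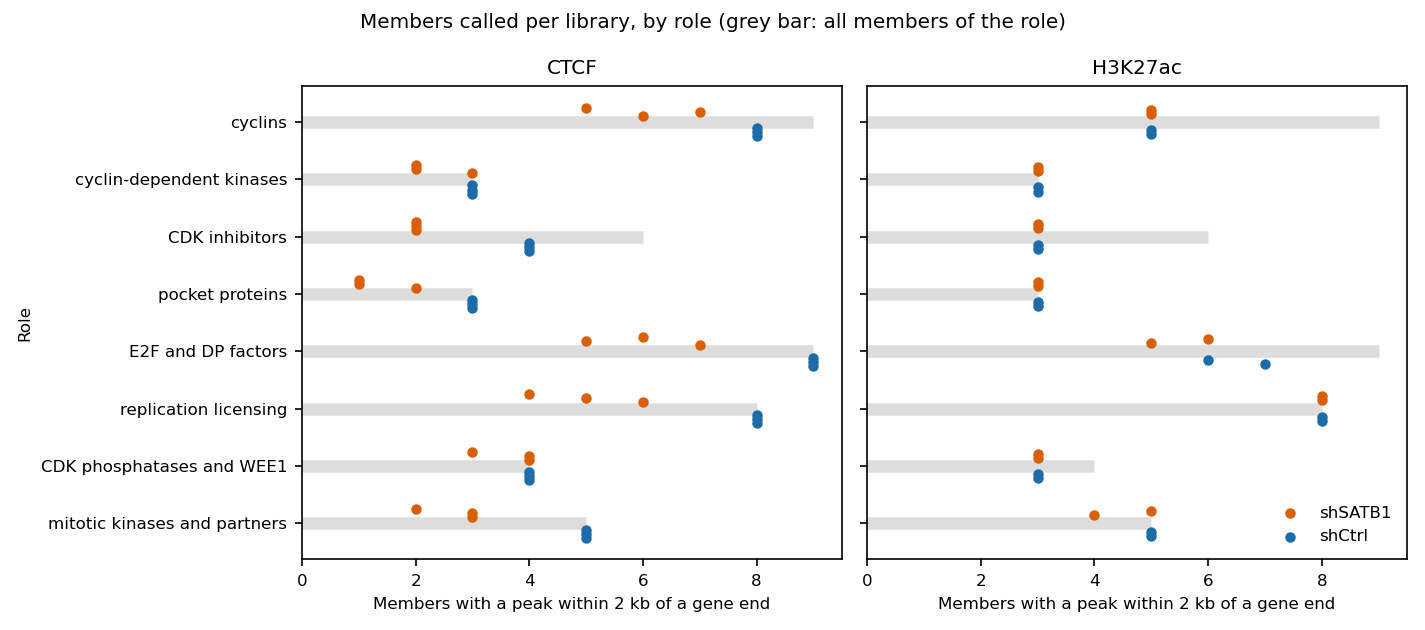
Number of members with a peak within 2 kb of a gene end (x axis), by role (y axis), for CTCF (left) and H3K27ac (right). Each point is 1 library, shSATB1 in orange above shCtrl in blue, and the grey bar runs to the number of members of the role. For CTCF the shCtrl points of a role coincide, and shSATB1 points lie at or to the left of them in every role.

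The 10 members that lost CTCF were CCNB1, CDKN1A, CDKN2C, RBL2, E2F6, E2F8, MCM4, MCM5, AURKB and BIRC5, which come from 6 of the 8 roles. All 10 were covered over 0 bp in each shSATB1 library and over 1333 to 3040 bp in each shCtrl library. In shCtrl the peaks at these genes ranked mostly low in their lists. CTCF was lost at 3 of 3 members with a mean shCtrl percentile up to 25 (68.9% of all genes there) and at 4 of 12 between 25 and 50 (41.1%). It was lost at 2 of 13 between 50 and 75 (11.3%) and at 1 of 16 above 75 (1.08%), namely CDKN1A. When each CTCF list was cut to the length of the shortest one, 20 members were called throughout shCtrl and 1 of them, CDKN1A, was lost (5%), against 4.06% of all genes. None was gained, against 0.295%. CDKN1A was not among the losses in a window of 5 kb, when the peak maximum had to lie in the window, or with the whole gene counted.

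Sequences of 5 of these 10 promoters are given from RefSeq (GRCh38.p14) as the 250 bases before the start, 5′ to 3′ on the gene's strand. Their starts lay within 2 kb of the annotated 5′ end. Their windows overlapped a CTCF peak in all 3 shCtrl libraries and in no shSATB1 library. CDKN1A had the same CTCF calls at its start, 2.25 kb from the annotated end, and is not printed. CDKN1B and E2F4 are added for the largest falls in CTCF length. Capitals mark matches on either strand to an E2F site (spelled TTGGCGC, with the other spellings TTCCCGC, then also TTGCCGC and lastly also TTCGCGC), to the CHR element (spelled TTTGAA), to the CCAAT box, or to the core of the CTCF site (spelled AGAGGGC, with the other spellings AGATGGC, then also AGGGGGC and lastly also AGGTGGC).
CCNB1, chr5:69166900-69167149, plus strand: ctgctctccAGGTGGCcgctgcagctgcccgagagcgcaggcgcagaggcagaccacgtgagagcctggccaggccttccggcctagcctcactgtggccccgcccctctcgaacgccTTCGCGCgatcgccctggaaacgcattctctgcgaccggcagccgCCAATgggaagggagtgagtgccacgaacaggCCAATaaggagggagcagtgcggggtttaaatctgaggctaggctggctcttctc
CDKN2C, chr1:50960495-50960744, plus strand: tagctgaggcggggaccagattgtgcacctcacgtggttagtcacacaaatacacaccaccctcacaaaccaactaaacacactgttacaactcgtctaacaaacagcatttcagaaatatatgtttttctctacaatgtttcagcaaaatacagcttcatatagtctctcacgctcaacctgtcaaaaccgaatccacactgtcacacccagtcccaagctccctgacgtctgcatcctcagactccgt
RBL2, chr16:53434221-53434470, plus strand: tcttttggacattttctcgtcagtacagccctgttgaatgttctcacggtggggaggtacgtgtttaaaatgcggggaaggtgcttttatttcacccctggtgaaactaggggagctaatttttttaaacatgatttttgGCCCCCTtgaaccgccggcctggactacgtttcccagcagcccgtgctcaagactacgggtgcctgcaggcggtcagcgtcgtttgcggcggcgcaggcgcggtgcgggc
E2F6, chr2:11466162-11466411, minus strand: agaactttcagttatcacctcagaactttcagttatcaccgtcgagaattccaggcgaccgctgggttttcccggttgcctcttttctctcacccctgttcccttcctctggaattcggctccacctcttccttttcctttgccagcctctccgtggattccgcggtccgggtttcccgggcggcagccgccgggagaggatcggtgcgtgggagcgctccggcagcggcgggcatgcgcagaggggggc
AURKB, chr17:8210250-8210499, minus strand: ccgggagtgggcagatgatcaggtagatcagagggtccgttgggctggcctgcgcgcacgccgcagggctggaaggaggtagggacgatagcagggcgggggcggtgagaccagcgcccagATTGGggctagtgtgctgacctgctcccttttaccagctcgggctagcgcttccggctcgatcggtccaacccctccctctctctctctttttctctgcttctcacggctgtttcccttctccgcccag
CDKN1B, chr12:12717118-12717367, plus strand: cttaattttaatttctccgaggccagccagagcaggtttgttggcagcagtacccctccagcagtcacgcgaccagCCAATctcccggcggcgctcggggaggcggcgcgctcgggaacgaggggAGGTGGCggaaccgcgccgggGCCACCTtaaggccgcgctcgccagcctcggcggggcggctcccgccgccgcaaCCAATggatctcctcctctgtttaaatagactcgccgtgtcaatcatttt
E2F4, chr16:67191905-67192154, plus strand: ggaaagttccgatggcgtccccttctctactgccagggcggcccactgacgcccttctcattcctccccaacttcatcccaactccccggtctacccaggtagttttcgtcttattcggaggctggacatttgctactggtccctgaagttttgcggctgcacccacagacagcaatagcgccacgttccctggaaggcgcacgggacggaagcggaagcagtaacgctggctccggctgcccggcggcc

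CCNB1 thus held 1 E2F, 2 CCAAT and 1 CTCF core match, RBL2 a single CTCF core match and AURKB a single CCAAT match. CDKN1B held 2 CCAAT and 2 CTCF core matches, while CDKN2C at its annotated end, E2F6 and E2F4 held no match. The promoter table had a start within 2 kb of the annotated 5′ end for 34 members. An E2F site was found in 15 of these 34 windows (44.1%), against 14.6% of 14763 promoters of the same length, and CCAAT in 17 (50%), against 34.7%. The CTCF core was found in 10 (29.4%), against 30.5%, and CHR in 4 (11.8%), against 10.7%. CHR and CCAAT stood together in the windows of CCNB2, CDK1, E2F3 and PLK1 (11.8%, against 4.2%). No overlap between the motif spellings was removed, and a match is a description of the letters only.

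H3K27ac was called at an end in every library of both arms at 5 of 9 cyclins, namely CCNA2, CCNB1, CCNB2, CCND3 and CCNE2. The share of all genes was 36.9% for every shSATB1 library and 38.8% for every shCtrl library. No library had H3K27ac at an end of CCNA1, CCND1, CCND2 or CCNE1. CCND3, the D-type cyclin most used by T cells, carried every mark mapped at its annotated ends. The neighbours BYSL and TAF8 each have an end within 2 kb of an end of CCND3, so these calls may belong to either gene. Other RefSeq starts of CCND3, 108 and 111 kb downstream of the annotated 5′ end, lay outside the end windows. Over both of these starts CTCF and H3K27ac were called in every library of both arms. At the ends of CCND3, H3K27ac covered 5254 and 4404 bp in shSATB1, against 7101 and 5895 bp in shCtrl. The 2 shSATB1 libraries lay below both shCtrl libraries, at 4829 ± 601 bp in shSATB1 and 6498 ± 853 bp in shCtrl (SD, n = 2 each), a difference of -1669 bp (exact permutation p = 0.33). Leaving out shCtrl replicate 1 brought the difference to -1066 bp. Inside the gene, a stretch of H3K27ac that was 1 peak of 27130 or 26991 bp in the shCtrl libraries was cut into 3 peaks in the first shSATB1 library and 4 in the second, with the longest at 12010 and 12546 bp. CCND1 and CCND2, its D-type relatives, had no H3K27ac at an end in any of the 4 libraries but had CTCF in all 3 shCtrl libraries.

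CCNE2, an E-type cyclin of the G1/S step, had H3K27ac over 2441 and 2936 bp in shSATB1 and 2735 and 2252 bp in shCtrl, which overlap. Its relative CCNE1 had none, and its CTCF covered 663, 1040 and 0 bp in shSATB1 against 1152, 2204 and 2335 bp in shCtrl. CCNA2, the cyclin of S phase and G2, held SATB1 at percentiles 92.0 and 89.9 and H3K27ac in all 4 libraries. CTCF covered 0, 2008 and 1697 bp there in shSATB1, against 1772, 2624 and 2394 bp in shCtrl, and the arms overlapped.

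CCNB1, the main mitotic cyclin (chromosome 5, 69167150 to 69178245), lost CTCF while its H3K27ac stayed. CTCF covered 0 bp in each shSATB1 library, against 2292, 1812 and 2191 bp in shCtrl, at shCtrl percentiles of 50.8, 66.9 and 63.1. H3K27ac covered 1738 and 2482 bp in shSATB1 and 2850 and 2033 bp in shCtrl, with overlap. CCNB2, the other B-type cyclin, kept CTCF in all 6 libraries, at 1595, 1664 and 2139 bp in shSATB1 and 2093, 2175 and 1956 bp in shCtrl. CCNA1, a cyclin mainly of the male germ line (chromosome 13, 36431517 to 36442870), was the 1 member with no peak at an end in any of the 14 lists, a state shared by 34.7% of all genes. The nearest peaks of any list left a gap of 29.2 kb around it.

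All 3 CDKs carried CTCF, H3K27ac and SATB1 in every shCtrl library, where the shares of all genes were 58%, 38.8% and 24.5%. CDK2, the partner of E- and A-type cyclins, had the highest SATB1 rank of all members, at percentiles 98.6 and 98.9. That peak lay at the higher-coordinate end of the gene (chromosome 12, 55972701 to 55974743). It was matched by H3K27ac in all 4 libraries, by CTCF in all 6 and by Matrin 3 in both lists. At the lower-coordinate end (55966069 to 55967420) SATB1 was called in 1 of 2 lists, at percentile 3.77. CTCF at that end was called in 1 of 3 shSATB1 and 3 of 3 shCtrl libraries. The neighbours PMEL and RAB5B each have an end within 2 kb of an end of CDK2, so these calls may belong to either gene. Over both ends CTCF covered 1355, 1983 and 2821 bp in shSATB1, against 3680, 4253 and 4718 bp in shCtrl, without overlap. CDK4, the kinase of D-type cyclins, kept CTCF at 2407, 2249 and 3176 bp in shSATB1 and 3879, 4001 and 2055 bp in shCtrl, with overlap. At CDK1, the mitotic kinase, CTCF covered 0, 0 and 1635 bp in shSATB1 against 1378, 1576 and 1671 bp in shCtrl.

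CDKN1B, which encodes an inhibitor of CDK2 complexes in resting T cells (chromosome 12, 12717368 to 12722369), showed the largest fall in CTCF length of any member. CTCF covered 688, 732 and 2478 bp at its ends in shSATB1, against 6423, 6392 and 8002 bp in shCtrl. All 3 shSATB1 libraries lay below all shCtrl libraries, at 1299 ± 1020 bp and 6939 ± 921 bp (SD, n = 3 each), a difference of -5640 bp (exact permutation p = 0.1). H3K27ac covered the whole 8002 bp of both windows in all 4 libraries, as part of single peaks 13418 and 13752 bp wide in shSATB1 and 13229 and 13323 bp wide in shCtrl. SATB1 covered 4446 and 4284 bp there in shCtrl. With CTCF lists of equal length the difference in CTCF was +256 bp. The highest-ranked CTCF peak at CDKN1B in each library stood at percentiles 19.1, 16.2 and 38.6 in shSATB1 and 33.9, 42.6 and 48.6 in shCtrl.

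**Figure D3:**
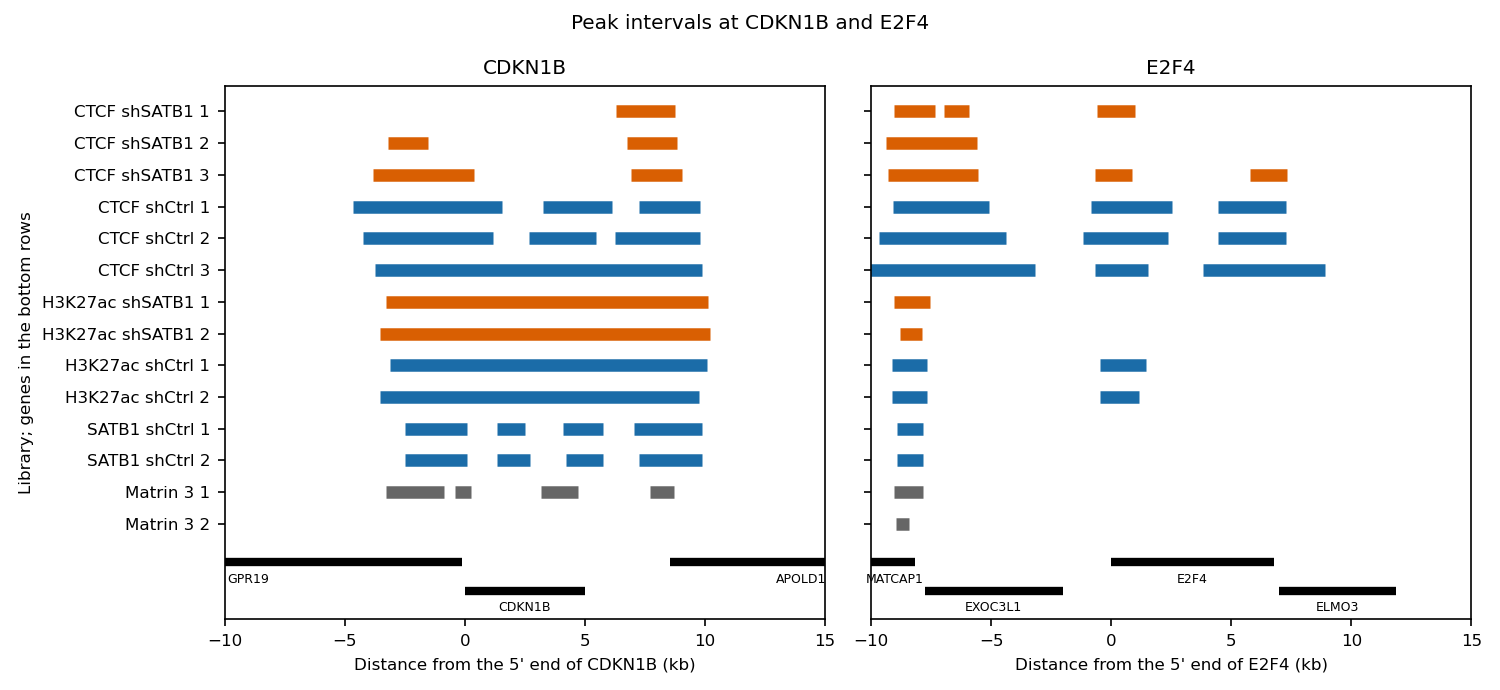
Peak intervals (bars) of the 14 libraries (rows; orange for shSATB1, blue for shCtrl, grey where no shRNA is labelled) by distance in kb from the 5′ end of CDKN1B (left) and E2F4 (right), with annotated genes in black at the bottom. At CDKN1B the H3K27ac bars span the gene in all 4 libraries while the CTCF bars of shSATB1 are shorter than those of shCtrl. At E2F4 the H3K27ac bar over the 5′ end is present in the 2 shCtrl libraries and absent in the 2 shSATB1 libraries.

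At CDKN1A, the inhibitor induced by p53 (chromosome 6, 36676463 to 36687332), the window at the annotated 5′ end lost CTCF but the gene body farther in did not. Over a RefSeq start 2.25 kb downstream, CTCF was called in all 3 shCtrl libraries and in no shSATB1 library. Within 2 kb of the ends CTCF covered 0 bp in each shSATB1 library, against 1333, 1902 and 1346 bp in shCtrl. Farther in, every shSATB1 library had a peak that began 3.46, 2.75 and 3.06 kb after the 5′ end, ranked at percentiles 73.6, 59.9 and 68.7. In shCtrl the peaks over the same stretch began 0.668, 0.099 and 0.655 kb after the 5′ end and were wider, at 4125, 4792 and 6952 bp, against 1332, 1646 and 1820 bp in shSATB1. With the whole gene counted, CDKN1A was therefore called throughout both arms. An H3K27ac peak 5.41 kb into the gene in shCtrl replicate 1 and 5.6 kb in replicate 2 was in neither shSATB1 library, and ranked at percentiles 18.7 and 21.6.

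CDKN2C and CDKN2D encode inhibitors of CDK4 and its relative CDK6. CDKN2C (chromosome 1, 50960745 to 50974634) lost CTCF at its ends, with 0 bp in each shSATB1 library against 2550, 2820 and 2668 bp in shCtrl. Its H3K27ac there covered 1161 and 962 bp in shSATB1, against 1876 and 1292 bp in shCtrl. The shCtrl lengths include part of a region at the 3′ end (50976240 to 50979515, mean percentile 67.9). That region was called in both shCtrl libraries and in neither shSATB1 library, while H3K27ac at the 5′ end was called in every library. Inside the gene, over other RefSeq starts 7.96 and 9.5 kb downstream, CTCF was called in all 6 libraries and H3K27ac in all 4. SATB1 was called in both lists over the start at 9.5 kb (50969537 to 50970825) and in 1 of 2 over the start at 7.96 kb. CDKN2D kept CTCF and H3K27ac: CTCF covered 4971, 5318 and 5828 bp in shSATB1 and 6520, 6520 and 6494 bp in shCtrl, and SATB1 in shCtrl ranked at percentiles 87.5 and 84.2.

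The plot of CTCF at single members gives the 10 that lost it and the 4 others with the largest falls in length.

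**Figure D4:**
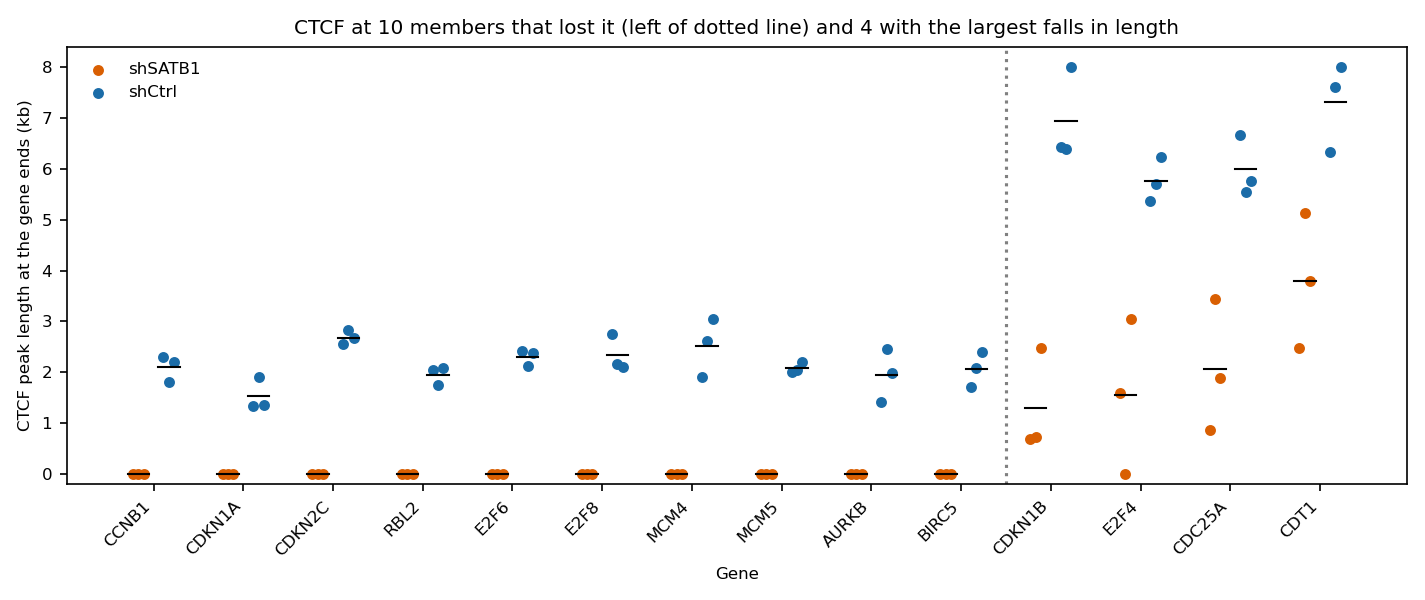
Length covered by CTCF peaks within 2 kb of the gene ends (kb, y axis) at 14 genes (x axis). Points are libraries, shSATB1 in orange left of shCtrl in blue, and black lines are means of 3. The 10 genes left of the dotted line are at 0 in every shSATB1 library; at CDKN1B, E2F4, CDC25A and CDT1 all shSATB1 points lie below all shCtrl points.

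CDKN2A and CDKN2B, neighbouring inhibitor genes on the short arm of chromosome 9, had no CTCF, H3K27ac or SATB1 peak. The locus is often deleted in T cell leukaemia, and Jurkat is described as lacking it. Leaving aside the second Matrin 3 list, 3 of the 47 members had no peak at an end (34.7% of all genes), namely these genes and CCNA1. The other 13 lists had no peak from 21111743 to 25222439 on chromosome 9, a stretch of 4.11 Mb with 22 protein-coding genes, among them MTAP, KLHL9, ELAVL2 and a cluster of interferon genes. It ranked 25 of 43046 such stretches by length, and of the 25 as long or longer, 2 held 20 genes or more. The other of these 2 ran from 28475042 to 32622338 on chromosome 6 and held 137 genes. Why that gene-rich stretch has no peak was not tested. The peaks flanking the chromosome 9 stretch were from a CTCF shCtrl library on 1 side and from an H3K27ac shSATB1 library on the other. Genes without a mark also give such stretches, and whether the DNA is present in these cells was not tested.

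The second Matrin 3 list was the exception at this locus. It had 6 peaks in the stretch, 2 inside CDKN2A (from 21970733 and 21993847), 2 inside CDKN2B (from 22005939 and 22008615) and 2 between genes (from 21742610 and 23536909). Their maximum signal was 5 to 9 and their percentiles within that list 5.18 to 55.0. Over the whole list, 348 of 2105 peaks (16.5%) were overlapped by no peak of the other 13. The other 24 long stretches held 1 peak of this list in all. The first Matrin 3 list had no peak in the stretch. The label of the second list also names Jurkat, and whether its cells match those of the other libraries was not tested.

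**Figure D5:**
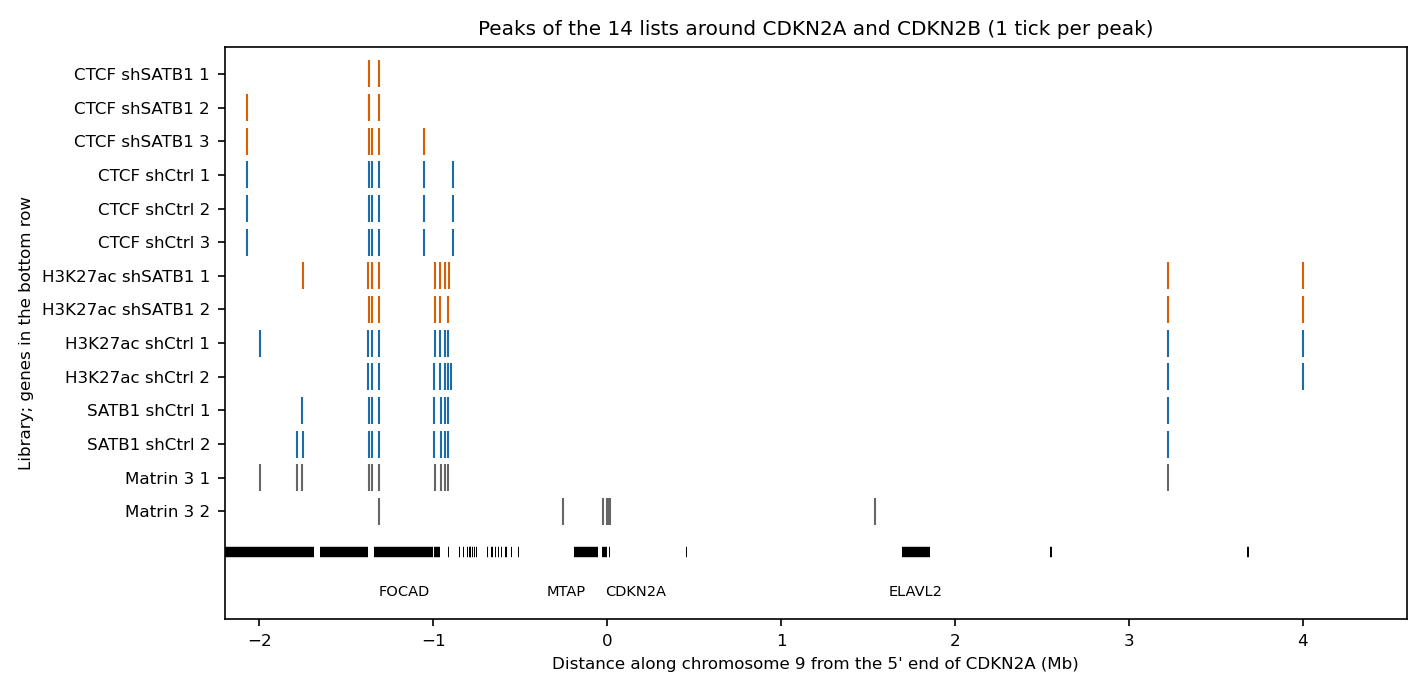
Peaks (1 tick each) of the 14 libraries (rows) by distance along chromosome 9 from the 5′ end of CDKN2A (Mb), with annotated genes as black bars at the bottom. Leaving aside the second Matrin 3 list, the nearest tick to the left is 0.884 Mb away, from CTCF shCtrl replicate 3. The nearest to the right is 3.23 Mb away, from H3K27ac shSATB1 replicate 1. Between these ticks lie the 6 peaks of the second Matrin 3 list.

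All 3 pocket proteins kept H3K27ac throughout, against 90.4% of all genes with H3K27ac in shCtrl, and differed in CTCF. RBL2, the pocket protein of resting cells and of the DREAM complex (chromosome 16, 53434471 to 53491648), lost CTCF at its ends, with 0 bp in each shSATB1 library against 2041, 1740 and 2074 bp in shCtrl. Those shCtrl peaks were among the lowest of their lists, at percentiles 3.19, 2.78 and 5.5. H3K27ac covered 1082 and 1578 bp there in shSATB1 and 1158 and 1715 bp in shCtrl, with overlap, and SATB1 lay only inside the gene (53456232 to 53458665), at a mean percentile of 94.1. At RB1, the retinoblastoma gene, CTCF covered 0, 0 and 1142 bp in shSATB1, against 3430, 3643 and 3222 bp in shCtrl, without overlap, while H3K27ac filled the 4001 bp around its 5′ end in all 4 libraries. Inside RB1, 2 H3K27ac regions (48405100 to 48407628 and 48471393 to 48473237 on chromosome 13) were called in both shSATB1 libraries and in neither shCtrl library, at low mean percentiles of 1.36 and 25.3. RBL1 kept CTCF, at 1534, 1783 and 2257 bp in shSATB1 and 3895, 2486 and 3486 bp in shCtrl, without overlap.

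E2F4, the main E2F of the DREAM complex (chromosome 16, 67192155 to 67198918), was the 1 member that lost H3K27ac. H3K27ac covered 0 and 0 bp in shSATB1, against 1912 and 1655 bp in shCtrl, where the peaks ranked at percentiles 10.3 and 15.3 and covered the start. With lists of equal length E2F4 was again the loss, 1 of 35 members (2.86%) against 2.14% of all genes, and none was gained against 0.701%. With the lowest 25% of each list left out, its shCtrl peaks were gone too and no loss was called. CTCF at E2F4 covered 1580, 0 and 3055 bp in shSATB1, against 5378, 5694 and 6234 bp in shCtrl, a difference of -4224 bp that became +1040 bp with lists of equal length. The E2F4 promoter window held a CTCF peak in 2 of 3 shSATB1 and in 3 of 3 shCtrl libraries, and no SATB1 peak.

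E2F1, E2F2 and E2F3 are the activating members of the family. E2F3 carried every mark, with SATB1 at percentiles 81.6 and 82.8, and H3K27ac at 2730 and 2551 bp in shSATB1 against 4001 and 3422 bp in shCtrl. E2F2 had H3K27ac over 2821 and 2118 bp in shSATB1 and 3194 and 3924 bp in shCtrl, also without overlap. E2F1 had no H3K27ac or SATB1 peak at its ends, and its CTCF was called in all 6 libraries, over 955, 2472 and 2154 bp in shSATB1 and 3964, 4001 and 3564 bp in shCtrl. TFDP1, the DNA-binding partner of E2F factors, was 1 of 2 members whose CTCF length was not lower in shSATB1, at 1460, 1358 and 1358 bp, against 837, 1414 and 1529 bp in shCtrl. Its CTCF rank was lower, at percentiles 4.53, 43.5 and 52.6 in shSATB1 and 78.3, 73.5 and 77.7 in shCtrl.

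E2F6, E2F7 and E2F8 act as repressors without pocket proteins. E2F6 (chromosome 2, 11444375 to 11466161) lost CTCF, with 0 bp in each shSATB1 library against 2410, 2115 and 2368 bp in shCtrl, and its H3K27ac was called in 1 of 2 libraries of each arm. E2F8 (chromosome 11, 19224063 to 19241655) lost CTCF as well, with 0 bp in each shSATB1 library against 2741, 2161 and 2105 bp in shCtrl, while H3K27ac covered 2214 and 2268 bp in shSATB1 and 2673 and 3446 bp in shCtrl. At E2F7, CTCF covered 0, 0 and 1561 bp in shSATB1 and 2179, 1927 and 2438 bp in shCtrl. E2F5, a relative of E2F4, kept CTCF and H3K27ac, and its H3K27ac covered 3829 and 3833 bp in shSATB1 and 3821 and 4001 bp in shCtrl.

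All 8 licensing genes carried H3K27ac in every library, where the share of all genes was 36.9% in shSATB1 and 38.8% in shCtrl. Of the 8, 2 lost CTCF, against 14.8% of all genes with CTCF. MCM2 to MCM7 encode the replicative helicase, which CDC6 and CDT1 load onto origins. MCM4 (chromosome 8, 47960941 to 47978160) had CTCF over 0 bp in each shSATB1 library against 1900, 2605 and 3040 bp in shCtrl. MCM5 (chromosome 22, 35400140 to 35455031) had 0 bp against 2001, 2037 and 2198 bp. At both genes H3K27ac remained, at MCM4 over 2407 and 1741 bp in shSATB1 and 3385 and 2659 bp in shCtrl, and at MCM5 over 1848 and 1726 bp in shSATB1 and 2404 and 1999 bp in shCtrl. MCM3 stood at the other end, with SATB1 at percentiles 89.4 and 92.9, and CTCF over 2738, 4576 and 4090 bp in shSATB1 and 6350, 6613 and 7062 bp in shCtrl.

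MCM2, MCM6 and MCM7 lay between. MCM6 had CTCF over 0, 0 and 996 bp in shSATB1 and 1940, 1909 and 1814 bp in shCtrl, and MCM7 over 0, 1628 and 3574 bp in shSATB1 and 4769, 4816 and 5958 bp in shCtrl. MCM2 was called in all 6. CDC6 kept CTCF at 4440, 4521 and 3910 bp in shSATB1 and 6574, 6047 and 5750 bp in shCtrl. CDT1 had the highest H3K27ac rank of all members' peaks at gene ends in each of the 4 libraries, at percentiles 99.3 and 99.2 in shSATB1 and 99.5 and 99.7 in shCtrl, beside its neighbour APRT. Its H3K27ac covered 4446 and 2761 bp in shSATB1 and 4841 and 5280 bp in shCtrl, and its CTCF 2470, 5126 and 3801 bp in shSATB1 and 6327, 7611 and 8002 bp in shCtrl, each without overlap. The H3K27ac difference of -1457 bp was -2300 bp without shSATB1 replicate 1 and -614.5 bp without shSATB1 replicate 2.

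CDC25A, CDC25B and CDC25C encode the phosphatases that activate CDKs, and WEE1 the kinase that opposes them. CDC25A had CTCF over 866, 3433 and 1880 bp in shSATB1 and 6672, 5551 and 5769 bp in shCtrl, without overlap. The difference of -3938 bp was -1733 bp with lists of equal length. Its H3K27ac covered 916 and 2184 bp in shSATB1, against 2683 and 2827 bp in shCtrl. CDC25C had H3K27ac over 1620 and 1435 bp in shSATB1 and 2606 and 2667 bp in shCtrl at its 5′ end. SATB1 lay only at an inner start of CDC25C (chromosome 5, 138331156 to 138332518), at a mean percentile of 90.4, where CTCF was called in all 6 libraries. CDC25B was the other member without a lower CTCF length, at 1670, 1892 and 2008 bp in shSATB1 and 1631, 2013 and 1745 bp in shCtrl, and its H3K27ac and SATB1 lay only inside the gene. WEE1 had CTCF and H3K27ac in every library of both arms, and SATB1 in both shCtrl lists.

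Of the 5 mitotic genes, 2 lost CTCF, against 14.8% of all genes with CTCF. These were AURKB and BIRC5, which encode the Aurora B kinase and its partner survivin in the chromosomal passenger complex. AURKB (chromosome 17, 8204731 to 8210575) had 0 bp in each shSATB1 library against 1408, 2453 and 1987 bp in shCtrl, and BIRC5 (chromosome 17, 78214253 to 78225635) had 0 bp against 1709, 2091 and 2400 bp. H3K27ac at AURKB covered 1183 and 1248 bp in shSATB1 and 961 and 1213 bp in shCtrl, and at BIRC5 1346 and 1058 bp in shSATB1 and 1727 and 1275 bp in shCtrl, each with overlap. Within 5 kb of its ends AURKB still had CTCF in shSATB1, so it was not lost in that wider window. PLK1, a kinase of mitotic entry, had H3K27ac over 1408 and 0 bp in shSATB1 and 2189 and 1942 bp in shCtrl. The difference of -1362 bp was -2066 bp without shSATB1 replicate 1 and -657.5 bp without shSATB1 replicate 2. AURKA, the spindle pole kinase, and BUB1, a spindle checkpoint kinase, kept CTCF and H3K27ac in every library.

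SATB1 in control cells was placed at 21 of 47 members (44.7%), against 24.5% of all genes. All 21 also had H3K27ac in both shCtrl libraries, as did 4452 of the 4900 genes with SATB1 in both lists. Among members with H3K27ac in both shCtrl libraries the share was 21 of 36 (58.3%), against 57.5% of all genes with H3K27ac. Among members without H3K27ac in either it was 0 of 10, against 2.29%. The 4 highest mean percentiles were 98.8 at CDK2, 91.1 at MCM3, 91.0 at CCNA2 and 85.9 at CDKN2D. The value at CDK2 is that of its higher-coordinate end alone. None of the 21 members with SATB1 lost CTCF, near the share of 5.46% of all genes with SATB1 and CTCF. Of 20 members without SATB1 in either list, 9 lost it (45%), against 22.6%. The remaining loss was CCNB1, called in 1 of the 2 SATB1 lists, at percentile 4.02. These groups were not matched for CTCF rank in shCtrl. Over all genes, CTCF losses fell from 68.9% up to percentile 25 to 1.08% above 75. Whether SATB1 calls and CTCF losses are linked apart from rank was not tested.

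Matrin 3 was called at 36 members in the first list, where the share of all genes was 49.3%, and at 7 in the second, where it was 7.92%. It was called in both at 5 members (7.85% of all genes), namely CCND3, CDK2, CDK4, RB1 and E2F3. At RB1 the 2 lists had separate peaks near the 5′ end that did not overlap, at 48302329 to 48304627 and 48305207 to 48305870. Each of these 5 members also had SATB1 and H3K27ac, and the share among all genes with Matrin 3 in both lists was not computed. Of the 36 members with a strand in the promoter table, SATB1 lay at the 5′ end only in 13 (36.1%, against 21.6% of all genes with a strand), at both ends in 4 (11.1%, against 2.35%) and at the 3′ end only in 0 (against 2.35%). H3K27ac in shSATB1 lay at the 5′ end only in 20 (55.6%, against 31.7%), at both in 5 (13.9%, against 5.04%) and at the 3′ end only in 0 (against 2.54%). In shCtrl its counts were 21 (58.3%, against 32.5%), 6 (16.7%, against 5.82%) and 0 (against 2.71%). CTCF in shSATB1 lay at the 5′ end only in 12 (33.3%, against 28.9%), at both in 4 (11.1%, against 6.72%) and at the 3′ end only in 1 (2.78%, against 3.74%). In shCtrl the CTCF counts were 23 (63.9%, against 39.7%), 10 (27.8%, against 15.4%) and 0 (against 4.62%). Members thus had more calls than all genes at both ends of the gene as well as at the 5′ end alone. For 20 of 47 members (42.6%, against 36.4% of all genes) another gene's end lay within 2 kb of an end, so a call there may belong to either gene.

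The other genes of the pathway were 91 in 5 lists. CTCF was called in every shSATB1 library at 61 (67.0%, against 37.9% of all genes) and in every shCtrl library at 83 (91.2%, against 58%). It was lost at 13 of these 83 (15.7%, against 14.8% of all genes with CTCF), among them MYBL2, the B-Myb factor that joins the late activating complex, ORC3 and ORC5 of the origin recognition complex, RRM1, the large subunit of ribonucleotide reductase, PTTG1 (securin), CDC16 and CDC23 of the anaphase-promoting complex, and the checkpoint kinase ATR. The other 5 were CCNH, DBF4, GINS1, MAD1L1 and MKI67. At MKI67, which encodes the proliferation antigen Ki-67, CTCF covered 0 bp on average in shSATB1 against 6067 ± 1130 bp in shCtrl (SD, n = 3 each). H3K27ac was called throughout shSATB1 at 74 (81.3%, against 36.9% of all genes) and throughout shCtrl at 74 (81.3%, against 38.8%). It was lost at 2 of the 74 (2.7%, against 2.18%), CDC16 and GADD45B, a stress-response gene. None of the 91 gained CTCF (0% of all genes) or H3K27ac (0.501%), and SATB1 was called in both lists at 49 (53.8%, against 24.5%).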

How the data were processed

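The 14 peak lists were used as the authors deposited them, 1 list per library, with position, total signal and maximum signal per peak; the signal columns are coverage in whole numbers with no scaling recorded. The submitters' processing notes name SEACR, Bowtie2, Trim Galore, deepTools and SAMtools for every library, add MACS2 except for Matrin 3, and give GRCh38 as the build. A threshold of 0.007 stands in the names of the SATB1 lists; other peak-calling settings and tool versions are not given in the sources used here. Read depth is unknown. Of 273747 peaks, the 405 on other sequences than chromosomes 1 to 22 and X were left out.

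Gene ends came from RefSeq GRCh38.p14, strands and starts from its promoter table, which had an entry for 36 members. Members and lists were chosen with earlier results of these data known. A gene was lost or gained when called in every library of 1 arm and none of the other. Values per member were compared by two-sided exact permutation tests, unadjusted, since none can pass 0.05. Values in full are given for members that lost or gained a mark, had no peak, had the 4 highest SATB1 percentiles, or had the 4 largest falls in length per mark; all other named members stand for their role. Alternatives changed the window, end, overlap rule, list length, lowest 25% of peaks, libraries and pairing, and the bins of shCtrl rank and the 13 lists were added after seeing the data. Scripts ran under Python 3.11.15 with scipy 1.17.1, pandas 2.3.3, matplotlib 3.10.9 and numpy 2.4.6, and the calls were tested on simulated data.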

Additional observations from a re-analysis of the deposited data

Results flagged for a closer look

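The second Matrin 3 list had 6 peaks in the stretch of chromosome 9 around CDKN2A and CDKN2B in which the other 13 lists had none. It was singled out because this list enters no comparison between arms and no control library of the same kind was at hand to set it against. The peaks carried a total signal of 1454 to 2328, against a lowest total signal of 1372 in that list. Their source was not tested.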

How the results depend on the processing

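Of 208 differences in covered length recomputed for the named members, 198 kept their direction, 8 became 0 and 2 reversed, CDKN1B at +256 bp and E2F4 at +1040 bp of CTCF, both with lists of equal length. With the 5′ end only, all 6 of the 10 CTCF losses that have a strand remained, and E2F8, MCM4, MCM5 and BIRC5 could not be tried. The losses were 10 in a window of 1 kb, 7 in a window of 5 kb and 9 by the peak maximum. They became 6 with the whole gene and 1 with lists of equal length, which left 20 members with CTCF throughout shCtrl. That 1 was CDKN1A, which was not lost at 5 kb, by the peak maximum or with the whole gene. No member thus lost CTCF under every setting. Leaving out 1 library gave 10 to 14. With the lowest 25% of each list left out there were 11, of which 5 were among the 10. The count of members with a higher CTCF length was 1 in a window of 1 kb. H3K27ac losses were 2 in a window of 5 kb, 2 with the whole gene, 0 without the lowest 25%, and 1 to 2 when 1 library was left out. H3K27ac gains were 1 (E2F2) by the peak maximum and 1 (CCNE2) without the lowest 25%. Members with a higher H3K27ac length were 2 in a window of 5 kb and 3 to 5 when 1 library was left out. Members with Matrin 3 in both lists were 3 with lists of equal length and 7 to 36 from either list alone. Members with no peak were 3 in the 13 lists. Deviations of same-numbered libraries in covered length correlated across genes at 0.00667, 0.012 and -0.000595 for CTCF and 0.0126 for H3K27ac. The H3K27ac value is a single number, since the deviations of 2 libraries mirror each other. These values cannot tell whether same-numbered libraries shared a culture or batch. With the replicate block the exact permutation p was 0.25 at CDKN1B for CTCF and 0.5 at E2F4 for H3K27ac, each the smallest possible, and the differences of -5640 and -1784 bp are the same by construction. Unknown depth limits any reading of an absent peak.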
